A study of Sus scrofa with 9 samples.

Results

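The first postnatal week of the pig left ventricle was described by comparing 3 libraries from day 7 with 3 libraries from day 0, which are 6 of the 9 libraries in the series. The libraries were chosen by the age and replicate number in their titles: replicates 4, 5 and 6 at day 0, called newborn here, and replicates 2, 5 and 6 at day 7. All animals were wild type and untreated, the tissue was myocardium of the left ventricle, and the remaining 3 libraries were from day 15. RNA sequencing gave TPM, each transcript's length-normalised share of its library, for 22629 rows. The 12268 genes with at least 1 TPM in at least 3 of the 9 libraries were tested. Whether each library stands for its own animal is not given in the labels, so a p-value here measures the spread between these samples, which may be technical.

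In the week after birth the mammalian ventricle leaves the low oxygen and high carbohydrate supply of the fetus, begins to pump against systemic pressure and starts to burn the fat of milk. Heart muscle cells of newborn mammals can still divide and lose this ability soon after birth, while the vessels and matrix around them go on growing. Cells short of amino acids, or under other stress, raise translation of the transcription factor ATF4, which switches on amino acid transporters, amino acid enzymes and tRNA synthetases, the enzymes that load amino acids onto tRNA.

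Values of a gene are given in replicate order, 4, 5 and 6 at day 0 and 2, 5 and 6 at day 7. For a single gene, a fold without the word log2 is a ratio of the mean TPM of the ages. Counts of genes at 2-fold, 4-fold or 8-fold or more instead use the fitted change on the log2(TPM + 1) scale. A log2 fold change is day 7 minus day 0 on the log2(TPM + 1) scale, where changes of weakly expressed genes come out too small. A gene is said to have risen or fallen where its Benjamini-Hochberg adjusted p from limma, over all 12268 genes, was under 0.05. Where several values are given for the omission of different libraries, they follow the order of the libraries named. In whole tissue, fewer cells of a type and less RNA per cell cannot be told apart.

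Heart muscle markers were abundant in all 6 libraries. The 10 heart muscle markers in the table summed to between 50477 and 59537 TPM at day 0 and between 50623 and 57113 TPM at day 7. The 12 skeletal muscle markers in the table summed to between 173 and 189 TPM at day 0 and between 255 and 409 TPM at day 7. Most of that sum was the muscle creatine kinase CKM, which is also on the heart muscle list, while 9 of the 12 were below 1 TPM in all 6 libraries and the regulator MYF6 was listed at 0. How deeply each library was sequenced is unknown, since TPM does not keep it. Pearson correlations across genes ran from 0.970 to 0.991 for libraries of the same age and from 0.927 to 0.961 for libraries of different ages, a description over genes that are not independent replicates. Newborn replicate 5 was the newborn library nearest to the day 7 mean for 51.3% of the tested genes, against 28.5% for replicate 4 and 20.2% for replicate 6. The atrial peptide gene NPPA stood at 349, 2087 and 495 TPM at day 0 and 249.9, 1446 and 37.2 TPM at day 7, so that replicate 5 of each age was the high one. The ages also differed in transcripts of the Y chromosome, which mark males. Sex was not part of the fit, so differences of age and of sex cannot be fully told apart. The part of sex in the results was not tested. The RNA helicase gene DDX3Y stood at 0.146, 0.153 and 0.181 TPM at day 0 and at 23.3, 33.3 and 0.126 TPM at day 7, and EIF1AY and KDM5D had the same high and low libraries. Day 7 replicate 6 is thus the one day 7 library that lacks these transcripts as the newborn libraries do. For some lists, not all, the median is also given with replicate 6 as the sole day 7 library. In that fit the spread comes from the newborn and day 15 libraries, and the lone library is assumed to vary as they do. The median log2 fold change of all genes was -0.14 in that fit, against -0.04 with all libraries.

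Of all genes tested, 2031 changed (16.6%), of which 941 rose (7.67%) and 1090 fell (8.88%), and 643 of them changed at least 2-fold (5.24%). In 17.6% of all genes every day 7 library was above every newborn library, and in 23.8% every one was below. No overlap was also required by the rule that named the largest rises and falls. A total of 183 genes kept their call in every alternative in which they were tested (1.49%), 44 that rose (0.359%) and 139 that fell (1.13%). Left without newborn replicate 4 or 6 the count of 2031 was 622 or 392, and without day 7 replicate 2, 5 or 6 it was 1129, 1243 or 867. When TPM was rescaled without the mitochondrially encoded and the 20 most abundant genes, 2355 rose and 1236 fell, and the median log2 fold change of all genes moved from -0.04 to 0.11. The direction of change differed with abundance. Among genes with a mean under 5 TPM over the 6 libraries, 428 rose and 186 fell, whereas among genes of at least 100 TPM, 19 rose and 87 fell. At a fitted 4-fold or more on the log2(TPM + 1) scale, 14 genes rose and 21 fell. At a fitted 8-fold or more 9 fell and 0 rose in limma (3 were higher by that much at an unadjusted p under 0.05). That scale shrinks changes of weakly expressed genes, so ratios of mean TPM can be larger. The largest fitted fall, -7.58 for the unnamed gene ENSSSCG00000035520, did not separate the ages, since its values were 4899, 3576 and 4685 TPM at day 0 and 0.741, 4074 and 0.664 TPM at day 7. It was picked out after its values were seen, and its call was among those that end when 1 library is left out. For ENSSSCG00000035520 the limma adjusted p was 0.0914, 0.115, 0.108 or 0.123 without newborn replicate 4 or 6 or day 7 replicate 2 or 6.

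**Figure D1:**
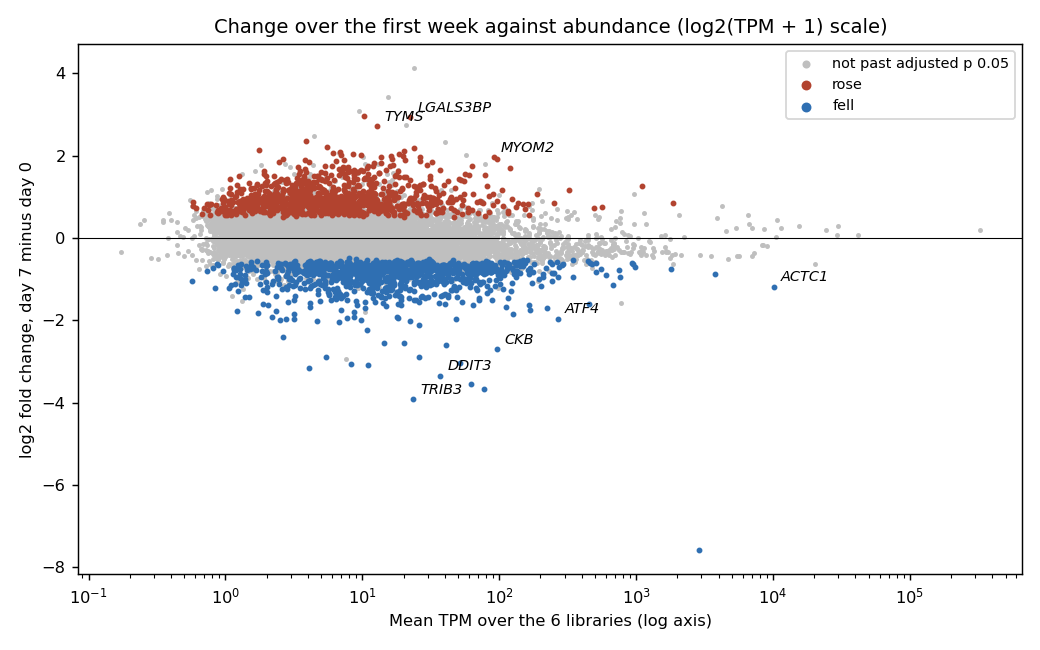
Each point is 1 of the 12268 genes tested, with its mean TPM over the 6 libraries on a log axis and its log2 fold change (day 7 minus day 0) on the vertical axis. Genes past an adjusted p of 0.05 are colored (941 red, higher at day 7, and 1090 blue, lower), and above 100 TPM most colored points lie below 0 (87 of 106).

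Genes of the amino acid response were lower at day 7. Of the 24 tested genes of the ATF4 and CHOP response, 20 fell and 1 rose (83.3% fell, against 8.88% of all genes), with a median log2 fold change of -1.51 against -0.04 over all genes. With day 7 replicate 6 as the sole day 7 library the median was -1.73 and 15 fell, and 13 of the calls were kept in every alternative in which the gene was tested. Of the ATF4 and CHOP response genes 13 fell without newborn replicate 6.

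ATF4, the transcription factor at the head of this response, stood at 428, 364 and 488 TPM at day 0 and 119.8, 117 and 89.3 TPM at day 7. It fell 3.92-fold with no overlap between the ages (log2 fold change -1.97 with an SE of 0.19, limma adjusted p = 3.58e-04). Its relative ATF5, also a bZIP factor of the response, stood at 61.5, 60.6 and 90.8 TPM at day 0 and 14.1, 11.2 and 7.41 TPM at day 7, a 6.51-fold fall (log2 fold change -2.61 with an SE of 0.24, limma adjusted p = 3.25e-04). DDIT3, which encodes the factor CHOP that promotes cell death under lasting stress, stood at 80.9, 38.1 and 86.5 TPM at day 0 and 5.20, 7.33 and 4.17 TPM at day 7. TRIB3, the pseudokinase that CHOP induces, stood at 45.6, 32.1 and 57.9 TPM at day 0 and 2.79, 1.92 and 1.37 TPM at day 7, which is 22.3-fold lower in the mean. For both genes the highest day 7 library lay far below the lowest newborn library. ATF3, another bZIP factor of the response, differed in this respect, with 29.8, 12.3 and 46.5 TPM at day 0 and 8.90, 12.7 and 5.09 TPM at day 7: newborn replicate 5 lay below day 7 replicate 5. Its limma adjusted p was 0.0449. For ATF3 the limma adjusted p was 0.128, 0.192, 0.0883 or 0.155 without newborn replicate 4 or 6 or day 7 replicate 2 or 6, and the call also ended without day 15 replicate 6.

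Targets of these factors fell as well. CHAC1, which breaks down glutathione, was among the clearest, at 3.99, 5.89 and 5.39 TPM at day 0 and 0.108, 0.148 and 0.170 TPM at day 7 (log2 fold change -2.40 with an SE of 0.17, limma adjusted p = 4.56e-05). FGF21, a stress-induced hormone, stood at 3.67, 3.92 and 6.26 TPM at day 0 and 0.462, 0.160 and 0.556 TPM at day 7. SESN2, which restrains the growth kinase mTORC1 when leucine is short, stood at 1.98, 3.55 and 2.46 TPM at day 0 and 0.307, 0.368 and 0.322 TPM at day 7. All 3 genes were below 1 TPM in every day 7 library. IFRD1, a transcriptional co-regulator, stood at 92.1, 64.7 and 120.3 TPM at day 0 and 10.6, 13.04 and 7.23 TPM at day 7 and fell 8.98-fold. ASNS, which makes asparagine, stood at 19.6, 27.9 and 21.8 TPM at day 0 and 5.16, 9.41 and 5.88 TPM at day 7. PYCR1, which makes proline, stood at 22.0, 24.6 and 31.2 TPM at day 0 and 11.9, 9.89 and 7.61 TPM at day 7. The calls of these 6 genes were kept in every alternative in which they were tested. In the wider list of serine, one-carbon and asparagine synthesis only 2 of 17 genes fell (11.8%), these same ASNS and PYCR1, and 1 rose (5.88%). Over all genes 8.88% fell and 7.67% rose.

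Amino acid transport changed in a few members. Of 19 transporters 4 fell (21.1% against 8.88% of all genes, median -0.28), and the same number fell when any 1 of the 6 libraries was left out. SLC3A2, the heavy chain shared by several amino acid exchangers, stood at 70.9, 63.6 and 97.9 TPM at day 0 and 18.7, 19.4 and 18.3 TPM at day 7 (log2 fold change -1.96 with an SE of 0.21, limma adjusted p = 8.17e-04). SLC7A5, the light chain that pairs with it to import leucine, stood at 9.56, 10.3 and 18.7 TPM at day 0 and 3.78, 1.62 and 2.24 TPM at day 7. SLC1A4, a carrier of small neutral amino acids, stood at 25.5, 18.5 and 31.6 TPM at day 0 and 5.42, 2.30 and 2.89 TPM at day 7, a 7.13-fold fall. The remaining one, SLC7A1, carries arginine and lysine and fell with a log2 fold change of -1.30. None of these 4 genes overlapped between the ages, but they were picked because they fell. Of all 19 transporters 6 were lower at day 7 without overlap and 1 was higher, against 23.8% and 17.6% of all genes.

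**Figure D2:**
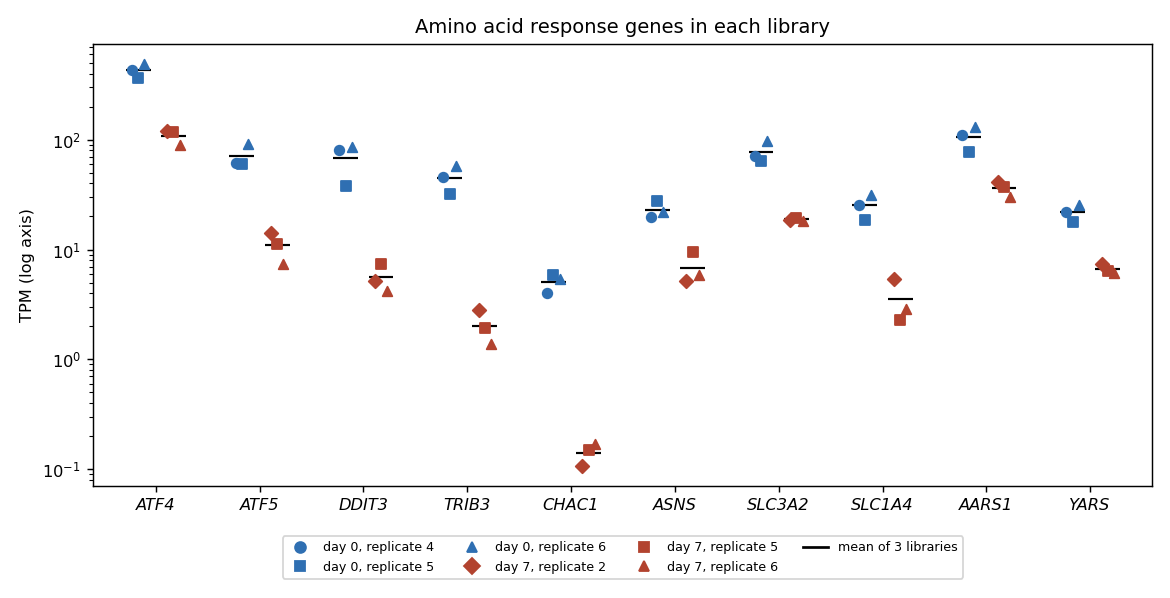
TPM on a log axis for 10 genes of the amino acid response in each of the 6 libraries, with a black bar at the mean of the 3 libraries of an age. In all 10 genes every day 7 library (red) lies below every newborn library (blue), with TRIB3 at 32.1 to 57.9 TPM at day 0 and at 1.37 to 2.79 TPM at day 7.

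The tRNA synthetases of the cytosol and of mitochondria were listed separately. Of 21 cytosolic synthetases and their partners, 15 fell and 0 rose in limma (1 at an unadjusted p under 0.05), with a median of -0.73, and 18 of the 21 were lower in every day 7 library than in every newborn library, against 23.8% of all genes. Of 17 mitochondrial synthetases 2 fell (11.8% against 8.88% of all genes), with a median of -0.11 that ran from -0.16 to 0.03 over 4 rescalings. The difference between the lists was not tested. Those for tyrosine (YARS), asparagine (NARS), alanine (AARS1) and threonine (TARS) had the largest falls, with log2 fold changes of -1.57, -1.56, -1.51 and -1.43. AARS1 stood at 110.5, 77.6 and 132 TPM at day 0 and 41.5, 37.1 and 30.3 TPM at day 7. YARS stood at 21.9, 17.9 and 25.5 TPM at day 0 and 7.32, 6.40 and 6.11 TPM at day 7. KARS, which serves both compartments, stood at 196, 149 and 214 TPM at day 0 and 163, 205 and 165 TPM at day 7, a difference that missed the threshold (limma adjusted p = 0.849). Of the cytosolic synthetases 9 fell without newborn replicate 6. Of the mitochondrial synthetases 0, 0, 1 or 0 fell without newborn replicate 4 or 6 or day 7 replicate 5 or 6.

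Genes that build ribosomes were lower at day 7. All 38 tested nucleolar genes had a fold change below 0, 27 of them fell, and the median was -0.82 (-0.92 with day 7 replicate 6 alone, where 6 fell). NPM3, a histone chaperone of the nucleolus, stood at 29.5, 27.2 and 31.6 TPM at day 0 and 9.33, 6.27 and 5.52 TPM at day 7 (log2 fold change -1.95 with an SE of 0.25, limma adjusted p = 0.00247). GNL3, the nucleolar GTPase nucleostemin, stood at 32.3, 26.1 and 39.3 TPM at day 0 and 11.9, 12.4 and 9.28 TPM at day 7. NOP2, which methylates ribosomal RNA, stood at 26.8, 23.4 and 35.8 TPM at day 0 and 9.85, 10.6 and 8.97 TPM at day 7. MYC, the factor that drives ribosome building, stood at 26.6, 19.4 and 35.1 TPM at day 0 and 11.3, 11.9 and 8.21 TPM at day 7 and fell too (log2 fold change -1.27). For MYC the limma adjusted p was 0.0542 without newborn replicate 6. ODC1, a MYC target that starts polyamine synthesis, stood at 58.7, 56.6 and 74.0 TPM at day 0 and 27.8, 28.3 and 21.2 TPM at day 7 and fell by a log2 fold change of -1.26. Of the nucleolar genes 16, 11 or 14 fell without newborn replicate 4 or 6 or day 7 replicate 6.

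Genes of translation, folding and protein breakdown fell in part. Of 42 translation factors 11 fell (26.2% against 8.88% of all genes, median -0.37). Among them was EIF2S2, a subunit of the initiation factor eIF2, at 52.9, 48.4 and 61.4 TPM at day 0 and 26.2, 29.3 and 24.2 TPM at day 7. Of 29 heat shock proteins and cochaperones 13 fell and 1 rose (median -0.69). HSPA9, the HSP70 of mitochondria, stood at 356, 255 and 382 TPM at day 0 and 161, 162 and 152 TPM at day 7. HSPA14, an HSP70 relative at the ribosome, stood at 23.0, 18.0 and 24.9 TPM at day 0 and 8.51, 9.32 and 8.02 TPM at day 7. Of 37 proteasome genes 12 fell, 35 had a fold change below 0, and PSMD14, the subunit that strips ubiquitin from substrates, stood at 50.4, 53.8 and 62.9 TPM at day 0 and 27.5, 25.3 and 25.3 TPM at day 7. Of 28 genes of the endoplasmic reticulum chaperone response 3 fell (10.7% against 8.88% of all genes). Of the translation factors 3, 1, 5, 5 or 3 fell without newborn replicate 4 or 6 or day 7 replicate 2, 5 or 6. Of the heat shock genes 5, 2, 8 or 3 fell without newborn replicate 4 or 6 or day 7 replicate 2 or 6. Of the proteasome genes 1, 1, 4, 5 or 1 fell without newborn replicate 4 or 6 or day 7 replicate 2, 5 or 6.

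**Figure D3:**
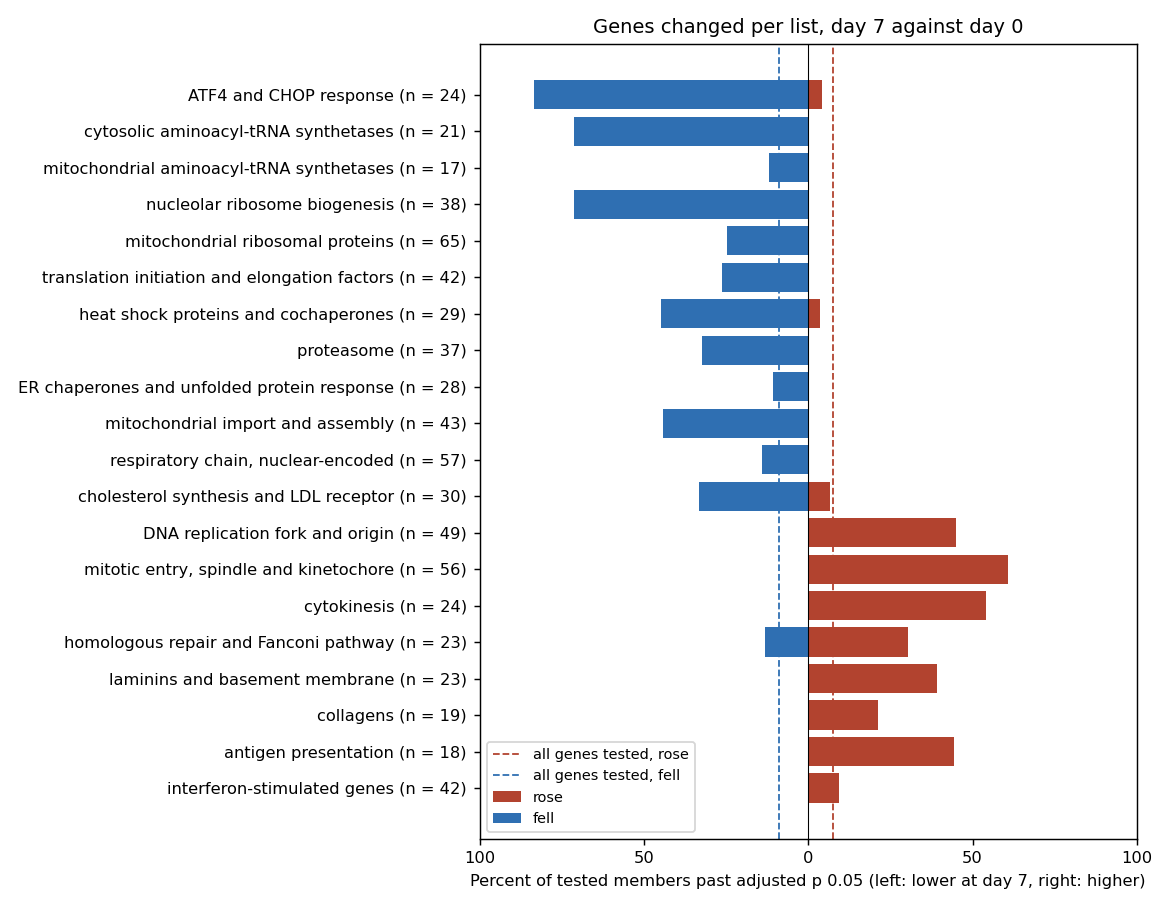
Percent of the tested members of 20 gene lists that rose (red, to the right) or fell (blue, to the left) between day 0 and day 7, with n the members tested. Dashed lines mark the same share over all genes tested (7.67% rose, 8.88% fell), and the longest bar to the left is the ATF4 and CHOP response (83.3%).

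Some genes that supply mitochondria with proteins fell. Of 43 import and assembly genes 19 fell (median -0.53). TOMM40, the pore of the outer membrane, stood at 168, 129 and 214 TPM at day 0 and 63.3, 57.0 and 37.7 TPM at day 7 (log2 fold change -1.68 with an SE of 0.23, limma adjusted p = 0.00291). TIMM17A, part of the inner membrane channel, stood at 161, 125 and 164 TPM at day 0 and 73.3, 75.1 and 44.8 TPM at day 7. TIMM8A, which escorts proteins between the membranes, stood at 55.1, 44.0 and 66.2 TPM at day 0 and 22.6, 20.8 and 16.4 TPM at day 7. Of 65 mitochondrial ribosomal proteins 16 fell (24.6%), and of 57 nuclear-encoded respiratory chain genes 8 fell (14.0%), against 8.88% of all genes. CYCS, cytochrome c, stood at 846, 839 and 1130.0 TPM at day 0 and 482, 412 and 369 TPM at day 7. COX6A1, a subunit of cytochrome oxidase, stood at 57.0, 41.1 and 64.0 TPM at day 0 and 17.03, 25.7 and 11.6 TPM at day 7. None of the 13 mitochondrially encoded transcripts passed in limma (1 was higher and 0 lower at an unadjusted p under 0.05), and their median was 0.22. Of the import and assembly genes 5, 5, 12, 12 or 6 fell without newborn replicate 4 or 6 or day 7 replicate 2, 5 or 6. Of the mitochondrial ribosomal proteins 4, 1, 10, 9 or 4 fell without newborn replicate 4 or 6 or day 7 replicate 2, 5 or 6. Of the respiratory chain genes 3, 2, 4 or 3 fell without newborn replicate 4 or 6 or day 7 replicate 5 or 6.

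Energy genes with several isoforms did not all change alike. The 2 cytosolic creatine kinases, which buffer ATP, moved apart. CKB, the brain type, stood at 136, 180.2 and 185 TPM at day 0 and 30.6, 35.7 and 13.3 TPM at day 7 (log2 fold change -2.71 with an SE of 0.45, limma adjusted p = 0.00519). CKM, the muscle type, stood at 187, 170.0 and 174 TPM at day 0 and 406, 311 and 252 TPM at day 7 and rose (log2 fold change 0.84, limma adjusted p = 0.0220). For CKM the limma adjusted p was 0.0645, 0.0906 or 0.0762 without newborn replicate 4 or 6 or day 7 replicate 2. SLC25A5, the ATP/ADP carrier of growing cells, stood at 105, 62.1 and 129 TPM at day 0 and 32.9, 35.9 and 23.0 TPM at day 7. Its heart isoform SLC25A4 stood at 5309.8, 3538 and 5831 TPM at day 0 and 3194, 2494 and 2263 TPM at day 7. Both fell, with log2 fold changes of -1.62 and -0.87. For SLC25A4 the limma adjusted p was 0.0839, 0.105, 0.0502 or 0.0622 without newborn replicate 4 or 6 or day 7 replicate 5 or 6. UCP3, an inner membrane carrier linked to fatty acid use, stood at 38.0, 13.4 and 55.9 TPM at day 0 and 5.14, 3.51 and 4.88 TPM at day 7, where newborn replicate 5 was the low newborn library but still above day 7.

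Some genes of sugar and fat handling were lower. HK2, an insulin-responsive hexokinase, stood at 12.7, 7.03 and 13.3 TPM at day 0 and 1.58, 5.39 and 0.357 TPM at day 7 (log2 fold change -2.04 with an SE of 0.46, limma adjusted p = 0.0149). For HK2 the limma adjusted p was 0.0587, 0.0764 or 0.0501 without newborn replicate 4 or 6 or day 7 replicate 6. PGM1, which links glycogen and glycolysis, stood at 394, 194 and 449 TPM at day 0 and 111, 122 and 73.6 TPM at day 7 (log2 fold change -1.69 with an SE of 0.29, limma adjusted p = 0.00541). SLC16A3, the lactate exporter of glycolytic cells, stood at 41.1, 36.0 and 51.1 TPM at day 0 and 8.42, 14.1 and 6.14 TPM at day 7. Of 26 genes of glucose uptake, glycolysis and lactate 5 fell (19.2%), and of 28 lipid droplet genes 6 fell (21.4%), against 8.88% of all genes. The 6 adipocyte markers in the table summed to 223, 299 and 302 TPM at day 0 and to 127, 61.6 and 72.6 TPM at day 7, and their part in the fat handling result was not tested. None was listed at 0 in all 6 libraries, and 1 of the 3 tested fell. That gene was FABP4, a fatty acid binding protein that is also on the endothelial list, at 212, 293 and 267 TPM at day 0 and 116, 54.9 and 65.2 TPM at day 7. FABP4 made up most of the adipocyte marker sum in all 6 libraries, so the sum says little about the other markers. The droplet coat protein PLIN5 stood at 42.6, 22.5 and 43.9 TPM at day 0 and 12.2, 5.79 and 6.76 TPM at day 7. The fatty acid transport protein SLC27A4, from another list, stood at 27.3, 18.5 and 37.4 TPM at day 0 and 11.0, 10.3 and 7.42 TPM at day 7 and fell too. Of 30 cholesterol genes 10 fell and 2 rose. SQLE, an early oxygen-requiring step of sterol synthesis, stood at 11.1, 10.7 and 13.1 TPM at day 0 and 5.01, 5.87 and 4.32 TPM at day 7. HMOX1, the heme-degrading enzyme induced by oxidative stress, stood at 11.98, 14.5 and 16.4 TPM at day 0 and 3.64, 6.02 and 2.61 TPM at day 7 and fell 3.50-fold. BDH1, which oxidises the ketone body hydroxybutyrate, went the other way, at 3.13, 4.86 and 2.75 TPM at day 0 and 9.85, 19.6 and 11.8 TPM at day 7 (3.84-fold higher). Of the glucose genes 3, 2 or 3 fell without newborn replicate 4 or 6 or day 7 replicate 6. Of the lipid droplet genes 2, 11, 2, 2 or 2 fell without newborn replicate 4, 5 or 6 or day 7 replicate 2 or 6. Of the cholesterol genes 3, 1, 4 or 1 fell without newborn replicate 4 or 6 or day 7 replicate 2 or 6.

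Many cell division genes rose. Of 49 genes of the replication fork and origins 22 rose (44.9%, median 0.62), of 56 genes of mitotic entry, spindle and kinetochore 34 rose (60.7%, median 0.95), and of 24 cytokinesis genes 13 rose (54.2%, median 1.07). In these 3 lists 0 genes fell in limma, and at an unadjusted p under 0.05 1 gene of each list was lower. With day 7 replicate 6 alone the medians were 0.52, 0.85 and 0.94, and the genes that rose were 1, 0 and 0 in limma (17, 26 and 9 at an unadjusted p under 0.05). Newborn replicate 5 lay between the other newborn libraries and day 7, its median deviation from the 6-library mean being 0.06 for replication, against -0.58 and -0.44 in replicates 4 and 6. The 11 erythroid markers in the table, genes of the red cell lineage, summed to 526, 1269 and 397 TPM at day 0 and to 1221, 862 and 558 TPM at day 7, and their part in the division result was not tested. Of the replication genes 6, 3, 12 or 14 rose without newborn replicate 4 or 6 or day 7 replicate 2 or 6. Of the mitotic genes 8, 7, 15 or 22 rose without newborn replicate 4 or 6 or day 7 replicate 2 or 6. Of the cytokinesis genes 3, 3, 5 or 8 rose without newborn replicate 4 or 6 or day 7 replicate 2 or 6.

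Regulators of entry into division and replication genes were among those that rose. E2F1, which opens the replication program, stood at 2.69, 11.4 and 4.31 TPM at day 0 and 25.2, 20.1 and 18.2 TPM at day 7 (log2 fold change 1.82 with an SE of 0.35, limma adjusted p = 0.00847). For E2F1 the limma adjusted p was 0.0502 without newborn replicate 6. MYBL2, which turns on mitotic genes, stood at 2.495, 10.8 and 3.03 TPM at day 0 and 26.1, 18.1 and 12.8 TPM at day 7. For MYBL2 the limma adjusted p was 0.0578 or 0.0730 without newborn replicate 4 or 6. In both genes newborn replicate 5 was the highest newborn library and lay below every day 7 library. TK1, the thymidine kinase of dividing cells, stood at 2.39, 7.69 and 4.03 TPM at day 0 and 24.1, 14.2 and 14.0 TPM at day 7. MCM5, a subunit of the replicative helicase, stood at 4.64, 11.7 and 6.82 TPM at day 0 and 28.6, 18.1 and 16.5 TPM at day 7. For MCM5 the limma adjusted p was 0.0537 without newborn replicate 6. ASF1B, a chaperone that brings histones to new DNA, stood at 1.14, 6.41 and 1.30 TPM at day 0 and 15.7, 11.1 and 8.41 TPM at day 7. For ASF1B the limma adjusted p was 0.0545 or 0.0691 without newborn replicate 4 or 6. None of these 5 genes overlapped between the ages, with newborn replicate 5 the nearest newborn library in each. Of all genes, 17.6% were higher at day 7 without overlap, but these 5 genes were picked from those that rose. With day 7 replicate 6 as the sole day 7 library their log2 fold changes ran from 1.08 (MCM5) to 1.62 (E2F1). None of the 5 passed in that fit, whose spread is borrowed from the other ages and where E2F1 had a limma adjusted p of 0.105 and MCM5 one of 0.142.

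Division to the end of the cycle was represented too. BUB1B, a spindle checkpoint kinase, stood at 1.14, 4.33 and 0.968 TPM at day 0 and 9.31, 8.30 and 7.97 TPM at day 7. CIT, the citron kinase of the midbody, stood at 0.281, 0.862 and 0.529 TPM at day 0 and 2.96, 2.16 and 2.45 TPM at day 7. ANLN, a scaffold of the cleavage furrow, stood at 1.28, 6.77 and 1.40 TPM at day 0 and 10.4, 11.3 and 9.14 TPM at day 7. For ANLN the limma adjusted p was 0.0710 or 0.0881 without newborn replicate 4 or 6. A few genes of nucleotide supply changed, in both directions. Of 25 genes 4 rose and 3 fell, against 7.67% and 8.88% of all genes. The share that fell was thus near that of all genes. The makers of DNA precursors TYMS, TK1, RRM1 and DUT rose (log2 fold changes 2.72, 1.76, 0.83 and 0.74). GART of purine synthesis, UMPS of pyrimidine synthesis and NME1, a nucleoside diphosphate kinase, fell (-0.82, -0.84 and -0.88). Without newborn replicate 4, newborn replicate 6 or day 7 replicate 6 none of RRM1, DUT, GART, UMPS and NME1 passed, and their highest limma adjusted p with 1 of the 6 libraries left out was 0.176, 0.122, 0.0803, 0.0843 and 0.107. RRM1, DUT and GART did not pass without day 7 replicate 2 either, nor RRM1, DUT and NME1 without day 7 replicate 5. Of the nucleotide genes 2 rose without newborn replicate 4 or 6 or day 7 replicate 2, 5 or 6. Of the nucleotide genes 0 fell without newborn replicate 4 or 6 or day 7 replicate 6.

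**Figure D4:**
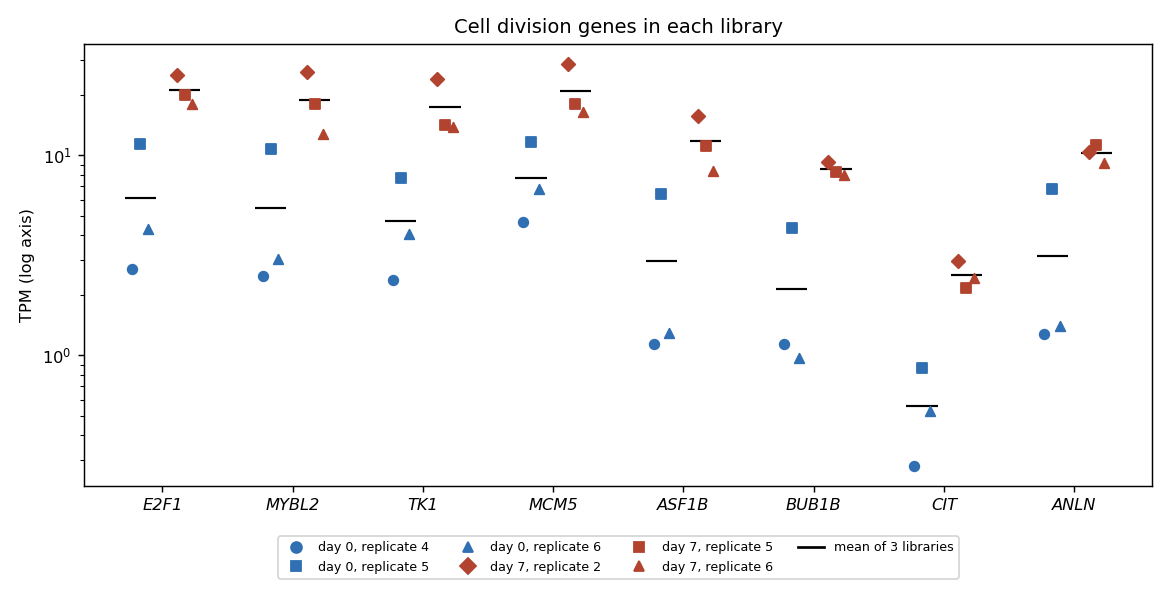
TPM on a log axis for 8 cell division genes in each of the 6 libraries, with a black bar at the mean of the 3 libraries of an age. Newborn replicate 5 (blue square) is the highest newborn library in all 8 genes and lies below every day 7 library (red), as for E2F1 at 11.4 TPM against 18.2 to 25.2 TPM.

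Brakes on division moved both ways. Of 27 cyclin-dependent kinase inhibitors and p53 targets 5 rose (18.5%) and 6 fell (22.2%), against 7.67% and 8.88% of all genes. CDKN2C, an inhibitor of CDK4 and CDK6, stood at 2.68, 11.0 and 3.38 TPM at day 0 and 18.3, 14.8 and 12.3 TPM at day 7. For CDKN2C the limma adjusted p was 0.0884, 0.107 or 0.0682 without newborn replicate 4 or 6 or day 7 replicate 2. GADD45A, a growth arrest gene, stood at 24.3, 29.0 and 30.9 TPM at day 0 and 9.66, 8.90 and 7.28 TPM at day 7 (log2 fold change -1.60 with an SE of 0.17, limma adjusted p = 7.90e-04). Outside the cycle itself, BMF, which triggers cell death when cells detach, stood at 1.81, 2.31 and 1.83 TPM at day 0 and 6.92, 10.03 and 18.7 TPM at day 7 and rose 5.98-fold. Of the kinase inhibitors and p53 targets 0, 0, 1, 2 or 2 rose without newborn replicate 4 or 6 or day 7 replicate 2, 5 or 6. Of the kinase inhibitors and p53 targets 3 fell without newborn replicate 4 or 6 or day 7 replicate 6.

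Several vessel and basement membrane genes rose. Of 31 VEGF, angiopoietin and tip-cell genes 3 rose (9.68%, near the 7.67% of all genes) and 1 fell. APLN, the peptide apelin of growing vessel tips, stood at 36.4, 34.3 and 41.1 TPM at day 0 and 243, 92.4 and 130.3 TPM at day 7 (log2 fold change 1.92 with an SE of 0.28, limma adjusted p = 0.00297). VASH1, an inhibitor made by endothelial cells as vessels mature, stood at 1.89, 3.74 and 2.66 TPM at day 0 and 18.0, 11.2 and 14.2 TPM at day 7, a 5.23-fold rise. EPHB4, a receptor of veins, stood at 3.84, 6.30 and 5.19 TPM at day 0 and 13.4, 11.8 and 10.5 TPM at day 7. The ages did not overlap in these 3 genes, which were picked from those that rose. Of the 31 genes 9 were higher at day 7 without overlap and 2 lower, against 17.6% and 23.8% of all genes. VEGFA, the vessel growth factor, went the other way at 193, 99.0 and 232 TPM at day 0 and 71.5, 81.4 and 49.9 TPM at day 7 (log2 fold change -1.30, limma adjusted p = 0.0158). For VEGFA the limma adjusted p was 0.0662, 0.0846 or 0.0589 without newborn replicate 4 or 6 or day 7 replicate 6. Of 23 laminin and basement membrane genes 9 rose (39.1%, median 0.42). NID2, which ties laminin to collagen, stood at 23.1, 38.4 and 28.7 TPM at day 0 and 79.9, 94.6 and 65.3 TPM at day 7. AGRN, the proteoglycan agrin, stood at 7.82, 13.7 and 9.77 TPM at day 0 and 35.4, 64.9 and 27.7 TPM at day 7. Of 19 collagens 4 rose, the largest being COL4A5 of basement membranes at 9.12, 7.41 and 12.4 TPM at day 0 and 24.9, 30.8 and 20.04 TPM at day 7. With day 7 replicate 6 alone, where the spread is borrowed from the other ages, the limma adjusted p was 0.00610 for APLN, 0.0209 for VASH1, 0.138 for EPHB4, 0.0626 for NID2, 0.0584 for AGRN and 0.103 for COL4A5. Of the basement membrane genes 5, 4 or 5 rose without newborn replicate 4 or 6 or day 7 replicate 2. Of the collagens 1 rose without newborn replicate 4 or 6 or day 7 replicate 2 or 5.

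Some genes of the matrix outside the basement membrane, and some markers of fibroblasts and endothelium, rose too. FBN1, the fibrillin of elastic fibres, stood at 13.6, 20.7 and 13.6 TPM at day 0 and 43.9, 53.7 and 41.8 TPM at day 7. ADAMTS6, a matrix protease, stood at 5.06, 8.26 and 5.36 TPM at day 0 and 17.6, 28.4 and 33.5 TPM at day 7. In their lists 4 of 37 elastic fibre, proteoglycan and glycoprotein genes rose (10.8%) and 5 of 37 matrix proteases, inhibitors and crosslinkers (13.5%), against 7.67% of all genes. The medians of these lists were 0.32 and 0.22. They were 0.04 and -0.04 with day 7 replicate 6 as the sole day 7 library, where the median of all genes was -0.14. THY1, a surface protein of fibroblasts, stood at 5.51, 13.6 and 6.41 TPM at day 0 and 43.5, 41.4 and 33.3 TPM at day 7 (log2 fold change 2.17 with an SE of 0.27, limma adjusted p = 0.00151). Of 14 fibroblast markers 4 rose (28.6%). The 14 summed to between 1079.7 and 1642 TPM at day 0 and between 1821 and 2538 TPM at day 7, with none listed at 0. Of 14 tested endothelial markers 3 rose (21.4%) and 2 fell (14.3%, against 8.88% of all genes). Their sum ran from 566 to 693 TPM at day 0 and from 544 to 703 TPM at day 7. FABP4, which fell, is a large part of this sum, so the sum alone does not show how the others changed. Of the 14 tested endothelial markers 11 had a fold change above 0 and 3 below, with a median of 0.39. CDH5, the cadherin of endothelial junctions, stood at 27.7, 37.5 and 33.3 TPM at day 0 and 68.4, 61.4 and 61.3 TPM at day 7. The part of cell makeup in the matrix, vessel and division results was not tested. Of the elastic fibre and proteoglycan genes 1, 7, 1 or 1 rose without newborn replicate 4, 5 or 6 or day 7 replicate 5. Of the matrix protease genes 2, 8, 2, 1, 2 or 3 rose without newborn replicate 4, 5 or 6 or day 7 replicate 2, 5 or 6. Of the fibroblast markers 1, 1, 2 or 2 rose without newborn replicate 4 or 6 or day 7 replicate 5 or 6. Of the endothelial markers 1 rose without newborn replicate 4 or 6 or day 7 replicate 2. Of the endothelial markers 1 fell without newborn replicate 4 or 6 or day 7 replicate 2 or 6.

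Muscle genes changed singly. MYOM2, a protein of the M-band, stood at 43.4, 28.8 and 34.0 TPM at day 0 and 117, 105 and 217 TPM at day 7. TRDN, which anchors the calcium release channel, stood at 12.2, 17.2 and 11.8 TPM at day 0 and 27.2, 39.6 and 35.8 TPM at day 7. CAMK2B, a calcium-dependent kinase, stood at 8.74, 3.29 and 9.09 TPM at day 0 and 24.1, 25.3 and 18.5 TPM at day 7. All 3 genes rose, and every day 7 library exceeded every newborn library, as it did in 17.6% of all genes. These 3 were picked from genes that rose. XIRP2, an actin-binding repeat protein of the intercalated disc and Z-disc, was under 1 TPM in every newborn library, at 0.0290, 0.285 and 0.0199 TPM at day 0 and 1.496, 3.03 and 1.57 TPM at day 7. For XIRP2 the limma adjusted p was 0.0586 without newborn replicate 6. PDLIM3, a Z-disc protein, fell, at 9.37, 19.2 and 12.4 TPM at day 0 and 2.94, 7.36 and 2.46 TPM at day 7. The retinoid receptor RXRG fell as well, at 10.8, 11.4 and 11.3 TPM at day 0 and 2.97, 6.25 and 2.70 TPM at day 7. ULK1, the kinase that starts autophagy, stood at 2.22, 4.03 and 2.68 TPM at day 0 and 8.38, 10.8 and 9.01 TPM at day 7 (log2 fold change 1.40 with an SE of 0.20, limma adjusted p = 0.00291). KLHL38, a kelch protein of striated muscle, stood at 1.79, 2.66 and 1.93 TPM at day 0 and 7.25, 13.2 and 11.7 TPM at day 7, higher in all 3 day 7 libraries. Of the thin filament genes 5 of 22 fell (22.7%, against 8.88% of all genes). Cardiac alpha actin, ACTC1, was at 11841, 14745 and 15356 TPM at day 0 and 6255, 8088 and 4494 TPM at day 7 and fell. For ACTC1 the limma adjusted p was 0.0708 without newborn replicate 6. Of 17 thick filament, titin and M-band genes 2 rose (11.8%, near the 7.67% of all genes). The beta myosin heavy chain MYH7, at 8921, 7160.1 and 10218 TPM at day 0 and 7361, 9152 and 6946 TPM at day 7, did not pass (limma adjusted p = 0.559). Neither did cardiac troponin T, TNNT2, at 8883, 9600.4 and 10435 TPM at day 0 and 9591, 8991 and 6914 TPM at day 7 (limma adjusted p = 0.475). The ages overlapped in both. Of the thin filament genes 1, 2, 0, 3, 2 or 1 fell without newborn replicate 4, 5 or 6 or day 7 replicate 2, 5 or 6. Of the thick filament genes 1 rose without newborn replicate 4 or 6 or day 7 replicate 2 or 5.

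Some immune genes rose, and 1 day 7 library stood far above the others. Of 18 antigen presentation genes 8 rose (median 1.13), and of 42 interferon-stimulated genes 4 rose (median 1.14, 9.52% against 7.67% of all genes). With day 7 replicate 6 as the sole day 7 library these medians were 0.94 and 0.62. Day 7 replicate 5 had a median deviation from the 6-library mean of 1.96 for the interferon list, against -0.22 and 0.01 in replicates 2 and 6. LGALS3BP, an interferon-induced secreted lectin partner, stood at 1.46, 5.31 and 2.41 TPM at day 0 and 11.9, 94.2 and 18.4 TPM at day 7. For LGALS3BP the limma adjusted p was 0.0715 or 0.0806 without newborn replicate 4 or 6. TAP1, a peptide pump for class I antigen, stood at 3.35, 5.96 and 4.62 TPM at day 0 and 11.8, 30.8 and 14.9 TPM at day 7. For TAP1 the limma adjusted p was 0.115, 0.113, 0.0976 or 0.0724 without newborn replicate 4 or 6 or day 7 replicate 5 or 6. The 14 macrophage markers summed to between 86.2 and 108 TPM at day 0 and to 91.8, 167 and 94.1 TPM at day 7. The 15 lymphocyte markers summed to between 12.9 and 15.6 TPM and to 15.4, 33.3 and 22.9 TPM, and their part in the result was not tested. Of the antigen presentation genes 0 rose without newborn replicate 4 or 6 or day 7 replicate 5 or 6. Of the interferon-stimulated genes 0, 0, 7 or 2 rose without newborn replicate 4 or 6 or day 7 replicate 2 or 5.

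**Figure D5:**
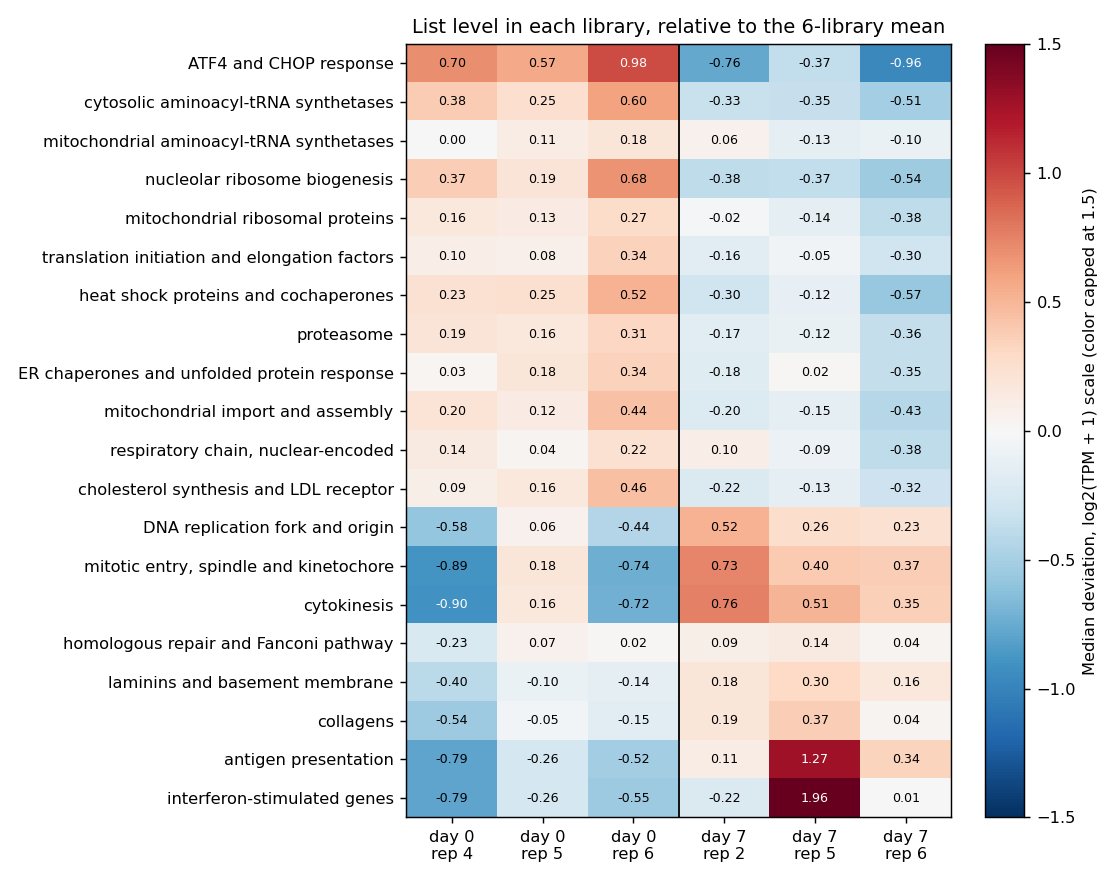
Median deviation of each list's genes from their own 6-library mean, on the log2(TPM + 1) scale, in each library, with red above and blue below the mean. The division lists are near or above 0 in newborn replicate 5 (0.06 for replication), and the antigen presentation and interferon lists are highest in day 7 replicate 5 (1.96 for interferon-stimulated genes).

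A few genes came close to switching. In 6 genes every library of one age was below 1 TPM and every library of the other was at 3 TPM or more. Higher at day 0 were FGF21, CHAC1, CLEC2L and the unnamed gene ENSSSCG00000032389. CLEC2L, a C-type lectin-like gene, stood at 3.59, 6.69 and 4.90 TPM at day 0 and 0.663, 0.689 and 0.218 TPM at day 7. The unnamed gene ENSSSCG00000032389 had 7.14, 11.0 and 6.28 TPM at day 0 and was listed at 0 in all day 7 libraries. Higher at day 7 were CUX2 and LHX6. CUX2, a homeobox factor, stood at 0.483, 0.760 and 0.762 TPM at day 0 and 3.19, 3.27 and 3.14 TPM at day 7. LHX6, a LIM homeobox factor, stood at 0.141, 0.533 and 0.772 TPM at day 0 and 6.61, 3.17 and 3.45 TPM at day 7.

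The first week was set against the second by testing the difference between the day 7 minus day 0 and the day 15 minus day 7 changes, which share the day 7 libraries. Over all genes 236 of 12268 differed (1.92%), and 21 changed between day 7 and day 15 (0.171%). The median log2 fold change of all genes was -0.04 in the first week and -0.15 in the second. The most abundant gene held 46.0% of TPM in day 15 replicate 1, against 30.6% and 35.2% in day 15 replicates 2 and 6. Of the ATF4 and CHOP response 8 of 24 differed between the weeks, with a median log2 fold change of -1.51 in the first week and -0.08 in the second. Of the replication genes 13 of 49 differed, with medians of 0.62 and -0.67, and of the mitotic genes 12 of 56, with medians of 0.95 and -0.68. None of the 38 nucleolar genes differed after limma's adjustment, and 11 did at an unadjusted p under 0.05. Their medians were -0.82 and -0.24. The whole-table count of 236 became 23, 734 or 18 without newborn replicate 4, 5 or 6, it became 10, 62 or 3 without day 7 replicate 2, 5 or 6, and it was 71 without day 15 replicate 6.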

How the data were processed

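The authors deposited 1 table of TPM values, with 1 column for each of 9 libraries from TruSeq stranded mRNA preparations, per the labels' protocols. The tools, per the submitters' processing notes, include kallisto 0.43.1, HISAT2 2.0.5 and Trimmomatic 0.33. The genome build, the annotation and the treatment of reads shared by similar or overlapping genes: not given in the sources used here. Promoter and protein sequences were not analysed here.

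Genes with at least 1 TPM in at least 3 of the 9 libraries were kept (12268), and values were taken to log2(TPM + 1), a pseudocount of 1. With limma 3.58.1 under R 4.3.3, the 9 libraries were fitted by a linear model having 1 mean for each age, followed by empirical Bayes moderation with an intensity trend. There were 6 residual degrees of freedom. P-values were adjusted by Benjamini-Hochberg over all genes, with a threshold of 0.05. An exact permutation of 3 against 3 libraries cannot go below a two-sided p of 0.10 and was not used.

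The comparison and the 82 gene lists were chosen with earlier results of these data known. Genes were named by a rule: the 25 largest rises and 25 largest falls that had a gene symbol, a higher-age mean of 5 TPM or more and no overlap; in each list, the 8 members of smallest adjusted p past the threshold and the most abundant member; the 20 most abundant genes; and genes below 1 TPM at one age and at 3 TPM or more at the other. It named 458 genes, of which a part is given, and some results are not reported here. ENSSSCG00000035520, DDX3Y, EIF1AY, KDM5D and MYF6 were added outside the rule, after values were seen. The alternatives were 21 planned ones (other pseudocounts, filters, scalings and fits, a replicate block, and the omission of each library by itself) and 2 added after the data were seen (no day 7 replicates 2 and 5, and TPM rescaled without the most abundant gene).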

Additional observations from a re-analysis of the deposited data

How the results depend on the processing

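Leaving out 1 library at a time gave between 392 and 2688 changed genes, 196 to 1260 that rose, 196 to 1475 that fell, 291 to 1073 changed at least 2-fold, and 3 to 734 that differed between the 2 weeks. Other scalings called more genes. Median-of-ratios scaling gave 3788 (1909 rose and 1879 fell, 583 differed between weeks), quantile normalization 3562 (1591, 1971 and 553), and TPM without the most abundant gene 3437 (1786, 1651 and 484). TPM without mitochondrial and the 20 most abundant genes gave 3591 (2355 rose), 1107 at least 2-fold and 650 between weeks. Library weights gave 3216 (1545, 1671 and 1100). With no filter the counts were 1296, 584, 712 and 44, and with a mean of at least 5 TPM 555 rose and 89 differed between weeks. A pseudocount of 0.1 gave 1034 at least 2-fold and 141 between weeks, and one of 5 gave 206 at least 2-fold. Without day 7 replicates 2 and 5 the counts were 340, 62 and 278, with 336 at least 2-fold and 24 between weeks. The causes were not tested, beyond the smaller number of libraries or genes in some settings.

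With the replicate number as a block, 857 genes changed (325 rose and 532 fell) and 28 differed between weeks. Deviations of the 2 pairs with the same number at day 0 and day 7 correlated at 0.00328 and 0.0323. Same-number pairs that include a day 15 library correlated at 0.0986, -0.213 and 0.17. Pairs with different numbers ran from -0.335 to 0.372, so the numbers showed no clear pairing. Depth is unknown from TPM, so counting error could not be separated from other spread.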

Other observations

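Circadian clock genes were among groups not described above. Of 20 tested members 5 fell and 1 rose (median -0.18). NR1D1, a repressor in the clock loop, stood at 10.3, 8.08 and 12.6 TPM at day 0 and 4.72, 3.64 and 4.56 TPM at day 7. For NR1D1 the limma adjusted p was 0.0572 without newborn replicate 6. ARNTL, the clock activator BMAL1, stood at 7.56, 5.68 and 8.22 TPM at day 0 and 3.003, 3.33 and 3.13 TPM at day 7. CIART, a clock-controlled repressor, was higher, at 4.99, 4.56 and 5.08 TPM at day 0 and 18.8, 10.3 and 12.4 TPM at day 7. The labels used here give no hour of tissue collection. Of the clock genes 2, 1, 2 or 2 fell without newborn replicate 4 or 6 or day 7 replicate 2 or 6.

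Receptors and splicing factors gave some large single changes. FGFR2, a fibroblast growth factor receptor, stood at 1.99, 1.32 and 4.31 TPM at day 0 and 0.177, 0.289 and 0.227 TPM at day 7 (log2 fold change -1.44 with an SE of 0.26, limma adjusted p = 0.00623). KHDRBS3, a splicing regulator, stood at 35.9, 12.98 and 38.8 TPM at day 0 and 5.57, 5.19 and 8.14 TPM at day 7. BMP5, a bone morphogenetic protein, stood at 3.02, 6.67 and 3.34 TPM at day 0 and 11.9, 16.1 and 17.7 TPM at day 7. For BMP5 the limma adjusted p was 0.0586 without newborn replicate 6. SRF, the factor that drives actin and growth genes, stood at 69.2, 56.3 and 86.8 TPM at day 0 and 33.1, 39.3 and 20.4 TPM at day 7. For SRF the limma adjusted p was 0.0520, 0.0806 or 0.0518 without newborn replicate 4 or 6 or day 7 replicate 6.

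Rows that neighbour a gene of very high expression deserve a second look, and the values are given without an explanation. CMTM5, IL25 and EFS lie next to each other and near MYH7 in the RefSeq annotation of Sscrofa11.1. CMTM5 stood at 137, 113 and 163 TPM at day 0 and 3.33, 40.1 and 6.27 TPM at day 7. For CMTM5 the limma adjusted p was 0.0566 without newborn replicate 6. IL25 stood at 98.6, 115 and 119 TPM at day 0 and 2.34, 34.0 and 6.33 TPM at day 7. For IL25 the limma adjusted p was 0.0582 without newborn replicate 6. EFS, an adaptor protein, stood at 14.0, 14.0 and 21.2 TPM at day 0 and 3.13, 3.60 and 3.14 TPM at day 7. All 3 fell, and day 7 replicate 5 was the high day 7 library for CMTM5 and IL25 by a wide margin and for EFS by little.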
